A study of Mus musculus with 8 samples.

Results

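Cells with Gfap transcripts and several astrocyte transcripts were examined in the Drd1a-tdTomato sort (called D1Tom here) of mouse frontal isocortex at postnatal day 7. A cell was taken as a Gfap-positive astrocyte when it had a Gfap count of at least 2, a count above 0 in at least 3 of the 6 genes Aqp4, Gja1, Slc7a10, Cldn10, Mfge8 and Fgfr3, and a count of 0 for Pdgfra, Top2a, Mki67 and Fgf15, which mark oligodendrocyte precursors, dividing cells and progenitors. There were 601 such cells among 2865 that passed the gate on the other 10 genes, among 11494 D1Tom cells and among 22876 cells in the series. They were compared with the 1993 gated cells in which no Gfap count was recorded, called Gfap-0 cells here. The 271 gated cells with a Gfap count of 1 were put in neither class. All 4 libraries came from mice with the Drd1a-tdTomato reporter (a bacterial artificial chromosome transgene, line 6) and 2 floxed Foxp2 alleles, on a C57BL/6J background. The 2 control libraries carried no Cre, and the 2 conditional knockout libraries (cKO) carried Emx1-Cre in addition, which recombines in the dorsal telencephalic lineage that gives rise to cortical excitatory neurons and astrocytes. Libraries with the same number share a batch, so batch 1 holds control 1 with cKO 1 and batch 2 the other two. The cKO 2 library was male and the other 3 were female. Values for all 4 libraries are listed below in the order control 1, control 2, cKO 1, cKO 2 unless the sentence says otherwise. The number of animals in a library is not given in the sources used here, so libraries are the units of the tests. The p-values between genotypes measure the spread between libraries. Those that compare the classes within libraries measure how the class difference varies from library to library. Cells had been sorted for tdTomato as neurons were the study's target, and the astrocytes are those present in that sort.

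Astrocytes are glia that take up glutamate and GABA, buffer potassium, supply lipids and contact blood vessels and the pia with their end-feet. Gfap encodes an intermediate filament protein. In the rodent cortex it is abundant in the fibrous astrocytes of white matter and of the glia limitans under the pia, is low in most protoplasmic astrocytes of grey matter, and rises in reactive astrocytes after injury. During development its transcription is known to be promoted by STAT3 downstream of gp130 cytokine receptors and by BMP signals, whose common targets include the Id genes.

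The Gfap-positive cells numbered 159 and 147 in the control libraries and 140 and 155 in the cKO libraries. Gfap counts in them ran from 2 to 190 per cell, with medians of 6, 19, 4 and 9 by library. At the lower edge of the class stood 151 cells with a count of exactly 2, and just outside it the 271 cells with a count of 1. Of those 271 cells, 156 were in cKO 2, against 34, 55 and 26 in the other libraries. The deposited counts have an unusual make-up at low values: over all genes, the ratio of values of 2 to values of 1 was 1.69, 0.723, 1.54 and 0.307. The part of this make-up in who passed the Gfap minimum was not tested. Cells with 12 or more Gfap counts numbered 265, and they made up 35.8%, 63.3%, 34.3% and 43.2% of the class by library.

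**Figure D1:**
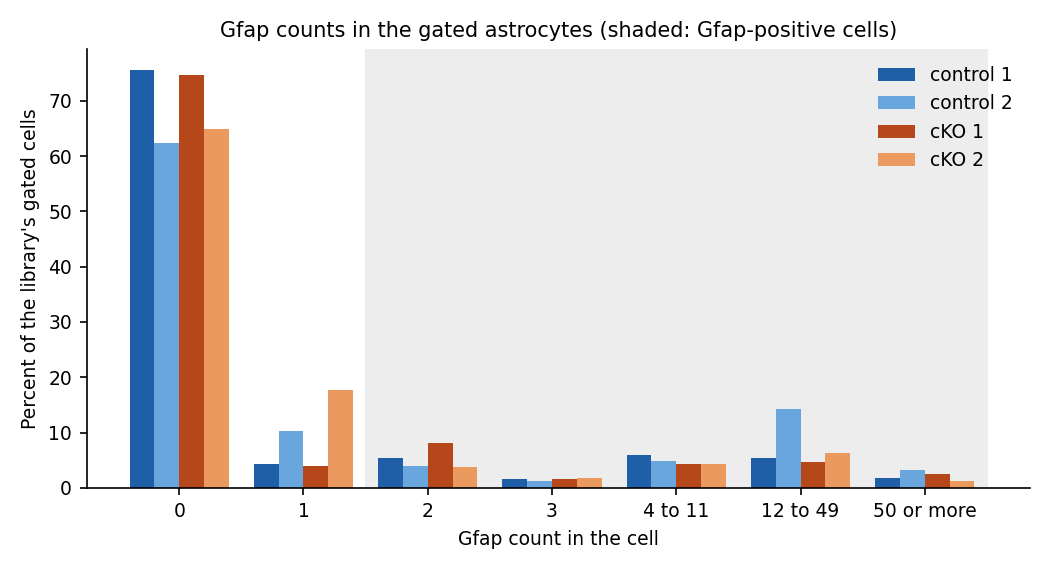
Percent of gated cells (vertical axis) at each Gfap count per cell (horizontal axis, from 0 to 50 or more) in the 4 D1Tom libraries, 1 bar per library. In every library most gated cells are at 0, and cKO 2 stands above the others at a count of 1, where it has 156 cells.

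Background from free RNA was gauged in 2926 reference neurons, cells with counts in at least 3 of Snap25, Syt1, Stmn2, Rbfox3 and Nrxn3 and none of Aqp4 or Gja1. Requiring no Aqp4 or Gja1 also removes droplets that took up free astrocyte RNA, so these cells can understate that background. A Gfap count of at least 2 was found in 1.57% of them, at a median depth of 8835.5 counts, against 21.0% of gated cells at a median depth of 7967 counts. Of the 2926 reference neurons 0 had 12 or more Gfap counts, which allows a share of up to 0.103% (3 cells of the total). After each cell was thinned to 3000 counts, the shares with at least 2 were 0.192% and 13.4%. The class was also more deeply counted than the cells it is compared with: median counts per cell were 10971, 11495, 10535.5 and 7949 in Gfap-positive cells, and 7453, 10272, 7272 and 6405 in the Gfap-0 cells. Beside the main values, comparisons are therefore given with Gfap-0 cells matched in total count, where this changed a call. Of the 601 cells, 20 had a high doublet score and 9 carried 1 of the 97 cell barcodes that occurred in more than 1 D1Tom library.

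The share of gated cells in the class was 20.2% (95% Clopper-Pearson interval 17.4 to 23.1) and 27.4% (23.7 to 31.4) for the controls. For cKO it was 21.3% (18.3 to 24.7) and 17.5% (15.1 to 20.2), and the intervals cover counting error only. The genotypes overlapped, with cKO 1 above control 1. The mean was 23.8% ± 5.14 (SD, n = 2) in controls and 19.4% ± 2.69 (SD, n = 2) in cKO, a difference of -4.35 percentage points (exact two-sided permutation test, p = 0.667, where 2 libraries against 2 cannot go below 0.333). Without control 2 the difference was -0.714 points, and with the Gfap minimum at 1 it was -0.831 points. With the minimum at 4 it was -5.96 points, and the genotypes did not overlap. The shares were then 13.2% and 22.2% in controls and 11.6% and 11.9% in cKO (p = 0.333 by the same permutation test). With the minimum at 12 the difference was -4.84 points and the genotypes overlapped.

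Both classes passed the same astrocyte gate, so comparing them cannot check the astrocyte label. The comparison describes how general astrocyte genes differed between them. Gfap-0 cells also held more neuronal marker RNA, as given below, and its part in these differences was not tested. Of 20 general astrocyte genes, all were tested between the classes, 14 were higher in the Gfap-positive cells, 1 was lower and 5 did not pass (edgeR's quasi-likelihood test with Benjamini-Hochberg adjustment at 0.05, library as a block). Across all 11520 genes tested, 25.2% passed in either direction, 12.4% higher and 12.8% lower, so the list's median log2 difference of 0.52 is read beside a median of -0.0016 over all genes. Without regard to the test, 41.6% of these genes had a difference of the same sign in all 4 libraries. Slc1a3, a glutamate transporter, stood at 2899, 2372, 2734 and 2129.5 CPM (a gene's share of all counts summed over the cells of a class in a library, scaled to 1000000) in Gfap-positive cells, and at 3660.1, 1821, 3509 and 2376 CPM in Gfap-0 cells. The classes overlapped for Slc1a3 (log2 -0.04 ± 0.13 SE, adjusted p = 0.866 by edgeR).

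The genes that formed the gate differed between the classes too, and are given as a description with no test. Aqp4, the water channel of astrocyte end-feet, stood at 2133, 2038, 2251 and 1962 CPM in Gfap-positive cells against 646, 357, 517 and 398 CPM in Gfap-0 cells. Slc7a10, a neutral amino acid transporter, went the other way, with 124, 27.1, 79.7 and 65.5 CPM against 336, 83.4, 209.6 and 126 CPM. It was lower in the Gfap-positive cells of each library, while libraries differed among themselves. Mfge8, a secreted bridging protein for phagocytosis, had 384, 167, 238 and 266 CPM against 638, 244, 453 and 389 CPM. Gja1, the gap junction protein connexin 43, had 502, 459.7, 529.8 and 514 CPM against 529.7, 306, 499 and 440.2 CPM, so its ranges overlapped. The label's other marker, Serpinf1, is no part of the rule but was listed as a marker from these data, so its levels are a description as well. Serpinf1, which encodes the secreted serpin PEDF, stood at 807, 316, 95.3 and 231 CPM in Gfap-positive cells and 25.2, 6.57, 8.15 and 14.9 CPM in Gfap-0 cells. The lowest Gfap-positive library, cKO 1, lay above the highest Gfap-0 library.

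Among the genes that passed, moved the same way in every library and reached a mean of 20 CPM, the largest differences lay in antigen presentation. Major histocompatibility complex class II molecules display peptides to CD4+ T cells and are known mainly from professional antigen-presenting cells such as dendritic cells, B cells and activated microglia. All 7 listed genes of this system were higher in the Gfap-positive cells, with a median log2 difference of 5.83, and the list was chosen with these results known. Cd74, the invariant chain that guides class II molecules through the cell, stood at 331, 243, 69.5 and 221 CPM in Gfap-positive cells and at 0.737, 0.68, 0.453 and 1.65 CPM in Gfap-0 cells. Every Gfap-positive library lay far above every Gfap-0 library, and cKO 1 was the lowest of the 4 (log2 8.01 ± 0.22 SE, adjusted p = 1.43e-12 by edgeR). The α chain gene H2-Aa had 96.7, 72.3, 18.6 and 46 CPM against 0.921, 0.68, 0 and 0.236 CPM (log2 6.96 ± 0.28 SE, adjusted p = 1.11e-10 by edgeR). H2-Ab1, its β chain partner, had 171, 134, 33 and 90.4 CPM against 6.26, 0.68, 0 and 1.18 CPM. A second β chain gene, H2-Eb1, had 106, 85.3, 38.4 and 68.5 CPM against 2.58, 1.81, 1.81 and 1.65 CPM. For each chain gene the order of the libraries was the same, with control 1 highest and cKO 1 lowest.

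The peptide-loading genes followed. H2-DMb1 had 81.5, 43.2, 15 and 27.1 CPM against 0.369, 0.68, 0.679 and 0 CPM (log2 6.58 ± 0.40 SE). Its partner H2-DMa was present in both classes, at 100.0, 51.7, 31.2 and 46.7 CPM against 11.1, 9.52, 9.28 and 8.5 CPM (log2 2.60 ± 0.21 SE, adjusted p = 4.28e-07 by edgeR). Ciita, the coactivator that switches class II genes on, was at 5.98, 8.53, 4.2 and 6.78 CPM against 0.369, 0.227, 0 and 0.236 CPM (log2 4.74 ± 0.60 SE, adjusted p = 3.67e-05 by edgeR). These 7 genes kept their call in every alternative in which they could be tested, including Gfap-0 cells matched in total count.

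Class II promoters are known for a shared arrangement of an X box, bound by RFX and CREB family factors, and a Y box, bound by NF-Y, on which CIITA acts. Of the 7 genes, 4 matched RefSeq promoter windows by symbol (build GRCm38.p6), 3 of them with a single window. For those 3 the 250 bases before the annotated start are shown, since these genes moved together between the classes. Bases in capitals are matches to 3 motifs searched on both strands: AACTGATG (a stretch of the X box), TGACGTCA (a CRE-like X2 box) and TGATTGG (the core of the Y box). No matches overlapped. The motifs were chosen after the windows were seen. The windows are chr17:34287824-34288073 on the minus strand for H2-Aa, chr17:34305617-34305866 on the plus strand for H2-Eb1 and chr17:34152941-34153190 on the plus strand for H2-DMb1, each printed 5′ to 3′ along its gene.
H2-Aa: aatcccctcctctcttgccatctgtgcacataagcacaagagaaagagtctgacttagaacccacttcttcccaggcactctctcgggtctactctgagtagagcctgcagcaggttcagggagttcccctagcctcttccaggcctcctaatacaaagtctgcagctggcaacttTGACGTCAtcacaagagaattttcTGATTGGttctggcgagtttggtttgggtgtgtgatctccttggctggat
H2-Eb1: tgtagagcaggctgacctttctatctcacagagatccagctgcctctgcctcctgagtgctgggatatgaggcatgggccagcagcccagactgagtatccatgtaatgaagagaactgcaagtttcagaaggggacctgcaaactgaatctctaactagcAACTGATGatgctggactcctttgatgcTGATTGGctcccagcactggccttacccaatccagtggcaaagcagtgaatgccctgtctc
H2-DMb1: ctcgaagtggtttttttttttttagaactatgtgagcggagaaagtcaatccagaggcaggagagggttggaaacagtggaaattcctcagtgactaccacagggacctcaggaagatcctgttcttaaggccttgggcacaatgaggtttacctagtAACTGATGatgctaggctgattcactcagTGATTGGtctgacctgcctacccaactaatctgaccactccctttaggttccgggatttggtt
The Y box core lay 50 to 44 bases before the start in H2-Aa, 61 to 55 in H2-Eb1 and 63 to 57 in H2-DMb1. H2-Eb1 and H2-DMb1 held the X box stretch at 89 to 82 and 92 to 85 bases before the start, and H2-Aa held the CRE-like box at 74 to 67. Among all 32851 windows of the same length, 0.676% held the X box stretch, 1.55% the CRE-like box and 7.23% the Y box core. These matches describe the letters of the windows and no binding was measured.

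Class II transcripts sat in a fraction of the class. At least 2 of the 5 genes Cd74, H2-Aa, H2-Ab1, H2-Eb1 and H2-DMb1 were found in 204 of 601 Gfap-positive cells (33.9%), and in 6 of 1993 Gfap-0 cells (0.301%). By library the Gfap-positive share was 37.7%, 46.3%, 17.1% and 33.5%, with cKO 1 the lowest. Among the 265 cells with 12 or more Gfap counts the share was 64.9% (77.2%, 65.6%, 50.0% and 64.2% by library), and among the 336 cells with 2 to 11 it was 9.52%. Cd74 itself was counted in 31.9% of Gfap-positive and 0.753% of Gfap-0 cells, and in 22.0% and 0.357% after thinning to 3000 counts. Droplets of both classes can take up free RNA, and the shares of Gfap-0 cells in the same libraries include some of it. Requiring no Gfap count also removes droplets that took up free RNA of Gfap-rich cells, so these shares can understate that background.

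Microglia can carry class II transcripts, and their markers are set beside these values. C1qa was counted in 1.16% of Gfap-positive and 1.25% of Gfap-0 cells, and Cx3cr1 in 0.832% and 0.853%. Of 9 microglial markers measured, 6 were tested, 0 were higher in Gfap-positive cells and 1, C1qc, was lower. Their summed level was 38.0, 6.52, 19.2 and 34.7 CPM in Gfap-positive and 11.1, 81.8, 104 and 100.3 CPM in Gfap-0 cells. It was thus higher in the Gfap-positive cells of control 1, the library with the highest Cd74 level, and lower in those of the other 3. None of the markers was at 0 in every Gfap-positive sum, and the part of microglial RNA in the class II levels was not tested.

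Other genes went with class II transcripts cell by cell. In Gfap-positive cells with a Rspo1 count, 62.8% had at least 2 class II genes, against 16.9% of those without, at median depths of 12422 and 8769 counts. The corresponding shares were 51.7% and 8.50% for Serpinf1, 57.6% and 15.4% for Nrp2, 53.1% and 23.9% for Msx2, and 79.2% with and 166 of 553 cells without for Myoc. For Myoc the depths were nearly equal, with medians of 9911 and 9870 counts. Of the 48 cells with a Myoc count, 46 had 12 or more Gfap counts. Among the cells with 12 or more the shares lay closer together, at 80.4% with and 61.6% without Myoc, 74.9% and 48.0% for Rspo1, 70.9% and 33.3% for Serpinf1, 70.2% and 51.9% for Nrp2, and 68.8% and 60.3% for Msx2. These co-detections are given without a test, as the cells share libraries and differ in depth.

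**Figure D2:**
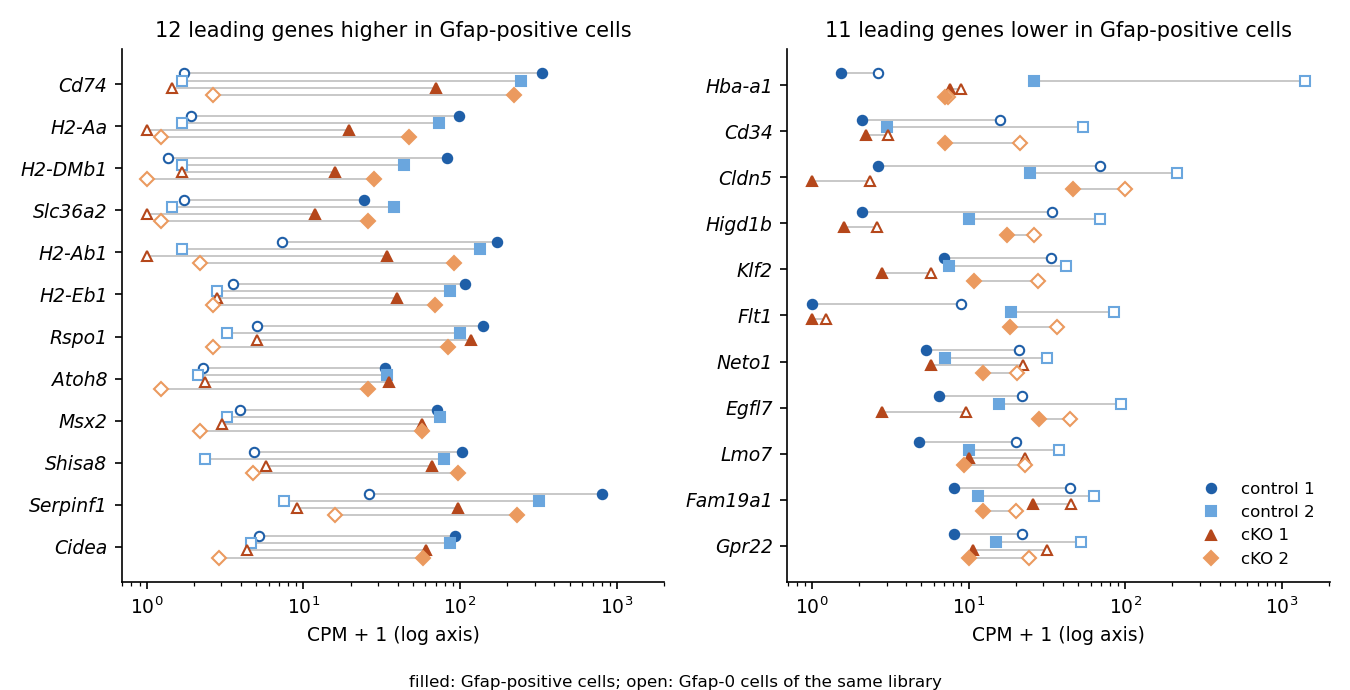
Level of the 12 leading higher genes and 11 of the 12 leading lower ones (CPM + 1, log axis). Filled points are Gfap-positive and open points Gfap-0 cells of each of the 4 libraries. Leading genes have the largest differences among those that passed, moved the same way in every library and reached a mean of 20 CPM. The class II genes and Rspo1, Msx2 and Atoh8 have all 4 filled points to the right of all 4 open points, while Hba-a1 is pulled by the Gfap-0 cells of control 2 at 1402 CPM.

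Beyond class II, the 12 leading genes held secreted, nuclear and membrane proteins. Rspo1, a secreted amplifier of Wnt signalling, had 139, 98.4, 116 and 82.9 CPM in Gfap-positive cells and 4.05, 2.27, 4.07 and 1.65 CPM in Gfap-0 cells (log2 5.26 ± 0.17 SE, adjusted p = 1.13e-11 by edgeR). Its classes lay far apart and its 4 Gfap-positive libraries lay close together. Msx2, a homeodomain factor and known BMP target, had 70.6, 73.8, 56.3 and 55.7 CPM against 2.95, 2.27, 2.04 and 1.18 CPM (log2 4.98 ± 0.20 SE). Atoh8, a basic helix-loop-helix factor, had 32.1, 33.1, 34.2 and 24.9 CPM against 1.29, 1.13, 1.36 and 0.236 CPM (log2 4.98 ± 0.31 SE). The remaining leading genes were Slc36a2, a proton-coupled amino acid transporter (log2 5.94 ± 0.41 SE), Shisa8, an AMPA receptor auxiliary protein (4.71 ± 0.22), Cidea, a lipid droplet protein (4.56 ± 0.18), and Serpinf1 (4.68 ± 0.23, a description). Apart from Serpinf1, all of these genes passed in every alternative in which they could be tested.

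BMP signalling genes formed the list with the next highest median. The list holds inhibitors of the pathway beside its receptors and targets, so its median gives no direction of pathway activity. The part of BMP signals in the Gfap levels was not tested. All 15 listed genes were tested, of which 11 were higher, 0 were lower and 4 did not pass, with a median log2 difference of 1.47. Id3, an inhibitor of basic helix-loop-helix factors and a BMP target, had 4351, 3459, 2448 and 2643 CPM in Gfap-positive cells against 2432, 727, 1348 and 853 CPM (log2 1.47 ± 0.18 SE). Each library's Gfap-positive cells exceeded its own Gfap-0 cells, while the Gfap-0 cells of control 1 reached the level of Gfap-positive cells in cKO 1. Id4, Id1 and Id2 differed by log2 2.00 ± 0.18, 1.58 ± 0.19 and 1.03 ± 0.15. The receptors Bmpr1a, Bmpr1b and Bmpr2 were also higher. The secreted antagonist noggin and the inhibitory SMADs, which restrain the pathway, were higher as well. Nog had 204, 170.1, 165 and 106 CPM against 32.6, 8.84, 21.5 and 12 CPM (log2 3.26 ± 0.18 SE, adjusted p = 3.22e-09 by edgeR). Smad6 had 50.5, 56.7, 64.7 and 31.6 CPM against 4.24, 2.72, 6.34 and 3.07 CPM (log2 3.72 ± 0.21 SE), and Smad7 differed by log2 1.48 ± 0.15.

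The gp130 and STAT3 genes changed in part. Of 14 listed 11 were tested, 6 were higher and 1 was lower, with a median of 0.64. Il6st, which encodes gp130, had 104, 148, 155 and 127 CPM against 28.6, 31.7, 38.7 and 26.7 CPM (log2 2.16 ± 0.11 SE, adjusted p = 1.9e-09 by edgeR). Lifr, the receptor that pairs with it for leukaemia inhibitory factor, differed by log2 1.51 ± 0.14 and Stat3 by 0.96 ± 0.14. Socs3, a feedback inhibitor, had 108, 7.03, 12 and 6.03 CPM against 23.6, 1.59, 4.75 and 2.36 CPM, with control 1 high in both classes (log2 2.01 ± 0.25 SE). Socs2, another inhibitor of cytokine signalling, was lower (log2 -1.16 ± 0.18 SE).

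**Figure D3:**
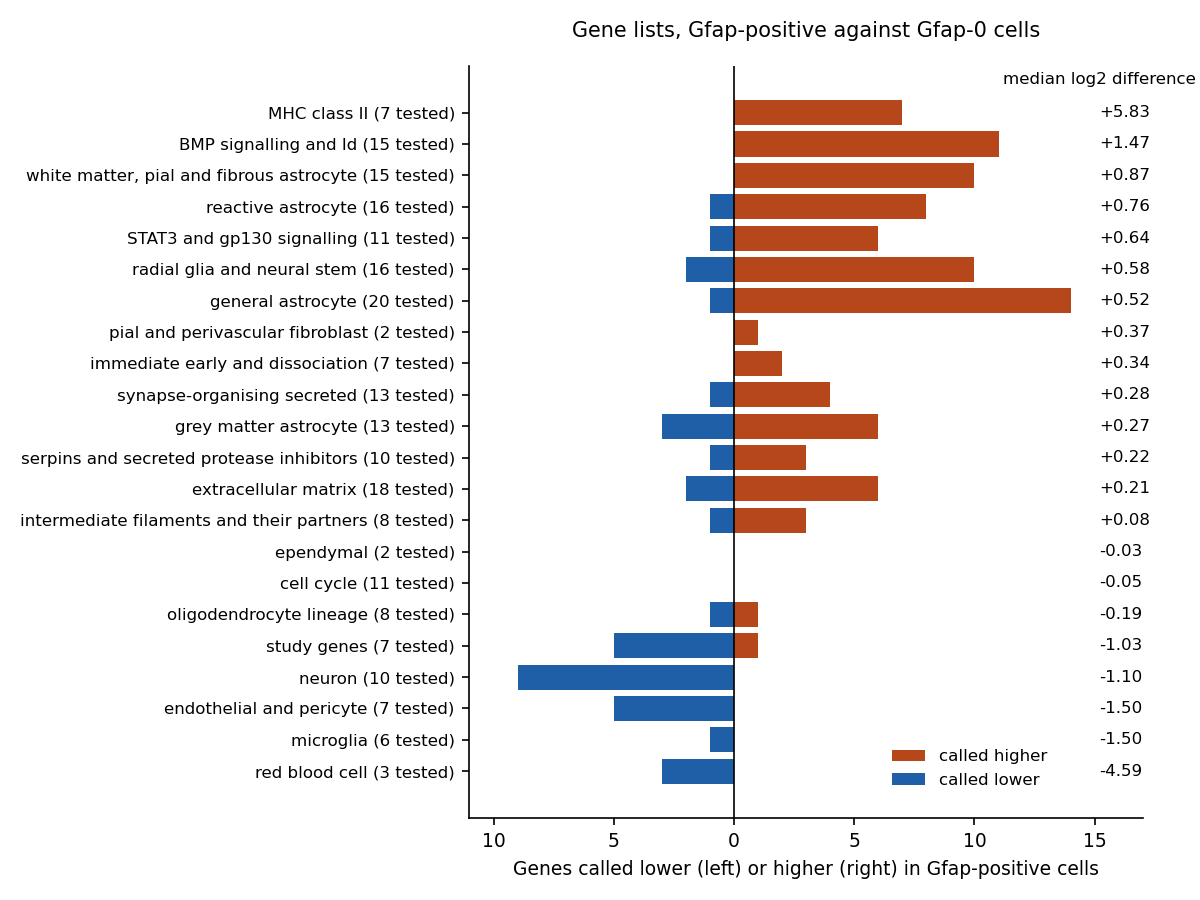
Number of tested members called higher or lower in Gfap-positive against Gfap-0 cells for the 22 gene lists, with each list's median log2 difference. The class II list has 7 of 7 called higher and the neuron list 9 of 10 called lower.

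Genes known from white matter, pial and fibrous astrocytes were higher in 10 of 15 tested members (of 18 listed), with 0 lower and a median of 0.87. Lists share members, so they are not separate results. Id1 and Id3 are also on the BMP list, and Fabp7 and Tnc on the radial glia list. Slc1a2 and Kcnj10 are on both the general and the grey matter list. Fabp7, a brain fatty acid-binding protein, had 16856, 11564, 10123 and 8545 CPM against 12684, 4614, 8036 and 5629.8 CPM (log2 0.75 ± 0.16 SE). Myoc, the secreted glycoprotein myocilin, had 10.9, 18.1, 14.4 and 21.8 CPM against 0.553, 0.453, 0.679 and 0.472 CPM (log2 4.85 ± 0.41 SE, adjusted p = 5.44e-07 by edgeR). Tnc, Igfbp5, S100a6 and Cd44 differed by log2 1.33 ± 0.11, 1.45 ± 0.10, 1.28 ± 0.11 and 0.87 ± 0.16. Grey matter astrocyte genes were split, with 6 of 13 tested higher and 3 lower (median 0.27). Slc6a11, a GABA transporter, was among the lower ones, with 286, 207, 372 and 259.9 CPM against 517, 346, 677 and 395 CPM (log2 -0.69 ± 0.10 SE). Slc1a2, the main astrocyte glutamate transporter, was higher by log2 0.50 ± 0.13, and Lcat, a cholesterol-esterifying enzyme, by 1.40 ± 0.20.

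Of the cytoskeletal genes, Vim, the filament partner of Gfap, had 215, 141, 131 and 139 CPM against 87.2, 66.4, 52.1 and 68 CPM (log2 1.27 ± 0.11 SE). Plec, a filament crosslinker, and Cryab, a small heat shock protein, were higher by log2 1.77 ± 0.12 and 1.12 ± 0.16, and Synm, another filament protein, was lower by log2 -0.82 ± 0.26. These were the 4 of 8 tested members that passed. Radial glia and neural stem genes were higher in 10 of 16 and lower in 2, with a median of 0.58. Pax6 was among the higher (log2 0.92 ± 0.19 SE), and the Notch target Hes1 and the receptor phosphatase Ptprz1 were the lower ones (log2 -0.36 ± 0.11 and -0.73 ± 0.12).

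Reactive astrocyte genes are those induced after injury or inflammation. Only 16 of 35 listed members passed the filter on low counts, of which 8 were higher and 1 lower, with a median of 0.76. Ggta1, a glycosyltransferase, had 42.4, 34.6, 31.2 and 20.3 CPM against 2.03, 4.76, 4.75 and 3.54 CPM (log2 3.18 ± 0.29 SE). Aspg, an asparaginase, had 16.3, 14.1, 4.79 and 6.78 CPM against 1.29, 0, 0 and 0 CPM (log2 4.98 ± 0.61 SE). Emp1, a membrane protein, was higher by log2 1.90 ± 0.19. S100a10 was lower, at 25.5, 58.7, 45.6 and 72.3 CPM against 97.7, 158, 113 and 153 CPM (log2 -1.34 ± 0.13 SE). The members that moved include Vim and Cd44, which are also on the lists above.

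Secreted and matrix genes moved in both directions. Ncan, a chondroitin sulphate proteoglycan, had 4583, 4601, 4221 and 3694 CPM against 2117, 1145, 1898 and 1245 CPM (log2 1.54 ± 0.14 SE). It was 1 of 6 higher matrix genes among 18 tested, with 2 lower. Sparcl1, known to promote excitatory synapse formation, was higher by log2 1.38 ± 0.13, 1 of 4 higher among 13 synapse-organising genes, while Bdnf was lower by log2 -0.97 ± 0.23. Of the 10 tested serpins and protease inhibitors 3 were higher and 1 was lower. A2m, a broad protease inhibitor, had 38, 45.7, 27.6 and 44.4 CPM against 9.4, 10.4, 11.1 and 10.9 CPM (log2 1.96 ± 0.19 SE), whereas Cst3 and Serpine2 did not pass (log2 0.22 ± 0.15 and 0.23 ± 0.11).

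Several further genes chosen after their values were seen had large differences. Fbxo2, a ubiquitin ligase subunit, had 330.4, 437, 299 and 387 CPM against 42.2, 18.8, 34.6 and 40.1 CPM (log2 3.51 ± 0.18 SE). Nrp2, a semaphorin receptor, had 117, 183, 109.7 and 107 CPM against 6.45, 9.06, 20.4 and 9.91 CPM (log2 3.61 ± 0.23 SE). The complement gene C4b and the zinc finger factor Snai2 differed by log2 4.14 ± 0.37 and 3.85 ± 0.28. Foxp1 was lower, with 69, 130.5, 121 and 88.1 CPM against 169, 362, 201 and 186 CPM (log2 -1.07 ± 0.13 SE).

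Gene levels were graded with Gfap within the class. This is a description, since the bins are made from the rule's own gene and depth rises with Gfap. Over the 4 libraries, Rspo1 stood at 3.01 ± 1.24 CPM (SD, n = 4) at Gfap 0, 3.89 ± 3.86 at 1, 13.9 ± 6.83 at 2 to 3, 65.6 ± 11.8 at 4 to 11 and 190 ± 68.7 at 12 or more. Its level at a Gfap count of 1 was within the spread of that at 0. Msx2 went through 2.11 ± 0.73, 1.29 ± 1.90, 17.8 ± 3.98, 61.0 ± 15.4 and 90.5 ± 12.6 CPM (SD, n = 4) over the same bins. Slc7a10 ran the other way, from 189 ± 111 CPM at 0 to 180 ± 122 at 2 to 3, 56.0 ± 15.9 at 4 to 11 and 16.5 ± 9.34 at 12 or more. Between Gfap 0 and 2 to 3 the Slc7a10 levels did not differ beyond their spread, and at 12 or more all 4 libraries, at 8.58 to 29.9 CPM, lay below every library at Gfap 0. Gja1 showed no such gradient, with 444 ± 98.9 CPM at 0 and 558 ± 93.8 at 12 or more.

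Cd74, H2-Aa, H2-Ab1, H2-Eb1 and H2-DMb1 were highest in the top bin in all 4 libraries. Cd74 stood at 18.9, 2.69, 0 and 5.47 CPM at Gfap 2 to 3, at 97.1, 51.5, 7.28 and 47.9 CPM at 4 to 11, and at 677, 357, 158 and 415 CPM at 12 or more. Below the top bin their levels did not rise step by step. The 55 cells of control 2 with a Gfap count of 1 had 165 CPM of Cd74, against 0 to 2.39 CPM in the other 3 libraries. These 55 cells also had 38.0 CPM of H2-Aa, 43.7 of H2-Ab1 and 25.3 of H2-Eb1, more than the 0, 2.69 and 8.08 CPM of that library's cells at Gfap 2 to 3. Myoc was at 1.01 ± 2.02 CPM (SD, n = 4) at Gfap 4 to 11 and at 30.9 ± 9.99 at 12 or more. In all 4 libraries its level in the top bin, 19.6 to 43.3 CPM, was above that in every lower bin.

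**Figure D4:**
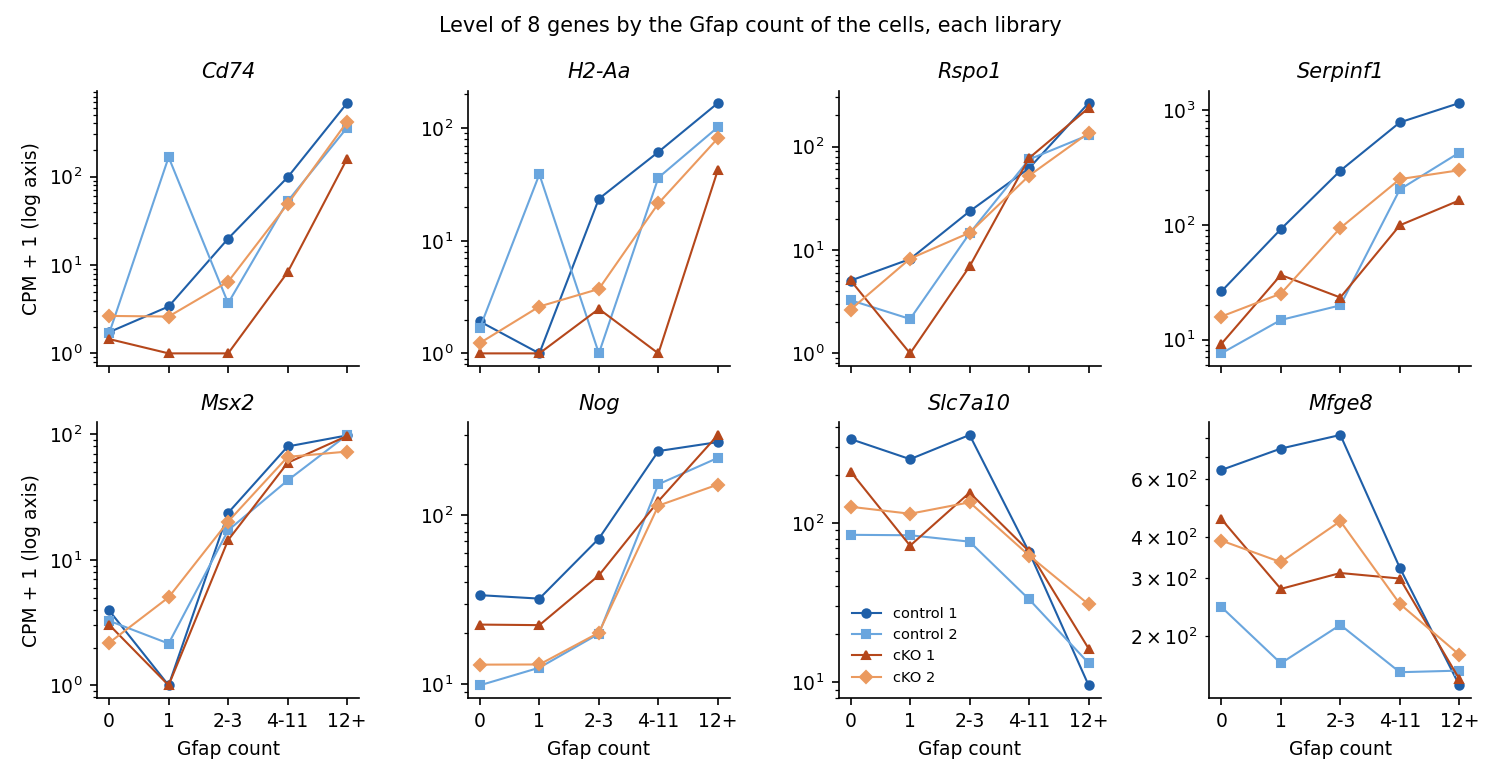
Level (CPM + 1, log axis) of 8 genes in gated cells grouped by Gfap count per cell (0, 1, 2 to 3, 4 to 11, 12 or more), 1 line per D1Tom library. Rspo1 and Msx2 climb from a count of 1 upward and Slc7a10 is lowest at 12 or more in all 4 libraries, and the Cd74 line of control 2 has a peak of 165 CPM at a count of 1.

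Among the lists for other cell types, the neuronal one had the most members that were lower in the class. Of 10 neuronal genes 9 were lower and 0 higher, with a median of -1.10. Their summed level was 745, 1900, 1688 and 1935 CPM in Gfap-positive cells and 2327, 4663, 2878 and 3662 CPM in Gfap-0 cells. No neuronal marker was at 0 in every Gfap-positive sum. Of 7 endothelial and pericyte genes tested 5 were lower, with sums of 39.0 to 216 CPM against 67.2 to 691 CPM. All 3 tested red blood cell genes were lower, with sums of 4.89, 99.4, 22.8 and 21.9 CPM against 3.69, 4751, 22.6 and 22.4 CPM. That difference came from the Gfap-0 cells of control 2, and without control 2 Hbb-bs stood at log2 0.81.

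The 12 genes leading the lower side held many of these. They included Hba-a1, a haemoglobin chain (log2 -4.68 ± 0.73 SE), and the vascular genes Cd34 (-3.10 ± 0.44), Cldn5 (-2.55 ± 0.35), Klf2 (-2.07 ± 0.26), Flt1 (-1.91 ± 0.32) and Egfl7 (-1.74 ± 0.28). Higd1b, a pericyte gene, was lower by log2 -2.27 ± 0.40. Hba-a1 turned to log2 0.29 against Gfap-0 cells matched in total count, and Flt1 and Higd1b turned to 0.50 and 0.32 when at least 4 of the 6 astrocyte genes were required. Others were Neto1, a kainate receptor partner (log2 -1.77 ± 0.27 SE), Lmo7 (-1.67 ± 0.24), Fam19a1 (-1.61 ± 0.27) and Gpr22 (-1.58 ± 0.20). When cells with a count in Cldn5, Hbb-bs, Hba-a1, C1qb or Reln, or in at least 3 of 5 neuronal genes, were left out, a choice made after seeing the data, 798 genes passed in place of 2903. This kept 107, 31, 62 and 63 Gfap-positive and 418, 31, 251 and 181 Gfap-0 cells by library. It left 8295 genes tested in place of 11520, so the 2 counts of calls come from unlike numbers of cells and genes. The part of RNA from other cells in the remaining calls was not tested. Fitted without the library block, 766 genes passed, of which 70.5% were higher, against 49.3% with it. Lists of fibroblast, ependymal and cell cycle genes had 1 of 2, 0 of 2 and 0 of 11 tested members higher and none lower. The oligodendrocyte list had 1 of 8 higher and 1 lower, Olig2. Of the immediate early genes, which respond to tissue dissociation, 2 of 7 were higher and 0 lower.

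Of 7 tested genes on a list drawn up around the deletion and the sort, 5 were lower in the class and 1, Sfxn1, was higher. Foxp2 is the deleted gene, and its level in Gfap-positive cells was 15.8 and 35.1 CPM for the controls against 25.2 and 8.29 CPM for cKO, so that the genotypes overlapped (log2 -0.59 ± 0.49 SE, adjusted p = 0.988 by edgeR). The libraries count transcript ends, and where the deleted exons lie relative to them is not given in the sources used here, so this is no check of the deletion. Between the classes Foxp2 did not pass (log2 -0.22 ± 0.21 SE, adjusted p = 0.511 by edgeR). Drd, as the table names it, had 15.8, 32.6, 12 and 14.3 CPM in Gfap-positive and 40.2, 70.9, 20.1 and 13.2 CPM in Gfap-0 cells (log2 -0.82 ± 0.21 SE, adjusted p = 0.00761 by edgeR). It passed in 11 of 16 alternatives.

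Whether Foxp2 deletion changed the Gfap-positive cells was asked with the 2 control and 2 cKO sums. Of 10627 genes tested, 0 passed (0.0%) by edgeR's adjusted p, 479 (4.51%) had an unadjusted p under 0.05, and 231 did so by DESeq2. Groups of 2 libraries did not overlap for 31.9% of all genes, 17.9% with both cKO libraries below both controls and the rest with both above. DESeq2 passed 1 gene, Sfxn1, and edgeR with the batch number as a block passed 3, Sfxn1, mt-Co2 and Fosb. The count depended on single libraries: it was 35 without control 1, 868 without control 2, 28 without cKO 1 and 36 without cKO 2, where the lone library of a group was assumed to vary like the other group.

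The 5 genes with the smallest p were named whatever their direction. Sfxn1, a mitochondrial serine transporter, had 2249 and 2086 CPM without Cre against 900.2 and 673 CPM with it, with no overlap (log2 -1.46 ± 0.26 SE, adjusted p = 0.577 by edgeR, or 0.0323 with the block). Its Gfap-0 levels were 2022 and 1389 CPM against 794 and 526 CPM. The mitochondrially encoded cytochrome c oxidase subunit mt-Co2 had 73.9 and 251 CPM against 13.2 and 35.4 CPM (log2 -2.73 ± 0.56 SE, adjusted p = 0.831 by edgeR, or 0.00299 with the block). Fosb, an immediate early gene, had 122 and 20.6 CPM against 3 and 3.77 CPM (log2 -4.40 ± 0.81 SE, adjusted p = 0.577 by edgeR, or 0.0132 with the block). Cebpd, a transcription factor of the acute phase response, had 132 and 66.7 CPM against 23.4 and 33.1 CPM (log2 -1.81 ± 0.38 SE). Trp73, a p53 family gene known from Cajal-Retzius cells, had 2.17 and 2.51 CPM against 29.4 and 15.8 CPM (log2 3.23 ± 0.55 SE, adjusted p = 0.577 by edgeR).

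Class II genes did not pass between genotypes with all 4 libraries and the filter on low counts. Both cKO libraries were below both controls for 6 of the 7, the exception being Ciita, against 17.9% of all 10627 genes tested. These genes share cells, so they are not separate results. The median log2 difference of the 7 was -0.96. Among cells with 12 or more Gfap counts, Cd74 had 677 and 357 CPM in controls against 158 and 415 CPM in cKO. The genotypes thus overlapped for Cd74 there, and did not for H2-Aa, H2-Ab1, H2-Eb1 and H2-DMb1. Such cells made up 63.3% of the class in control 2 and 34.3% to 43.2% of it in the other libraries. By edgeR with no filter, 3 of the 7 passed: H2-Aa (adjusted p = 0.0053), H2-Ab1 (0.0042) and H2-DMb1 (0.0021). Leaving out a library, with the lone library of its genotype assumed to vary like the others, also changed these calls. Without control 2 all but Ciita passed by edgeR, with Cd74 at log2 -1.19 (adjusted p = 0.0027). Without cKO 2, Cd74, H2-Aa, H2-Ab1 and H2-DMb1 passed, and without control 1, H2-Aa and H2-Ab1 did. None passed without cKO 1, where Cd74 stood at log2 -0.28 (adjusted p = 1.0 by edgeR). The size of the difference varied by batch. On the log2(CPM + 1) scale Cd74 differed by -2.24 in batch 1 and -0.14 in batch 2, and H2-Aa by -2.32 and -0.64. Serpinf1 differed by -3.07 in batch 1 and -0.45 in batch 2 (log2 -1.76 ± 0.48 SE, adjusted p = 0.856 by edgeR). For each of these genes control 1 was the highest and cKO 1 the lowest library. All 7 immediate early genes tested were below both controls in both cKO libraries, against 17.9% of all genes tested. As with class II, these 7 share cells and are not separate results. Sums over the 10 listed genes were 3088 and 661 CPM in controls against 423 and 347 CPM in cKO. The Gfap-0 cells of control 1 had 3100 CPM of these genes against 225 to 385 CPM in the other 3 libraries. The part of this dissociation-responsive signal in the other differences was not tested. The leading class genes Rspo1, Msx2 and Atoh8 differed by log2 -0.26 ± 0.27, -0.36 ± 0.26 and -0.14 ± 0.31 between genotypes, and none passed.

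**Figure D5:**
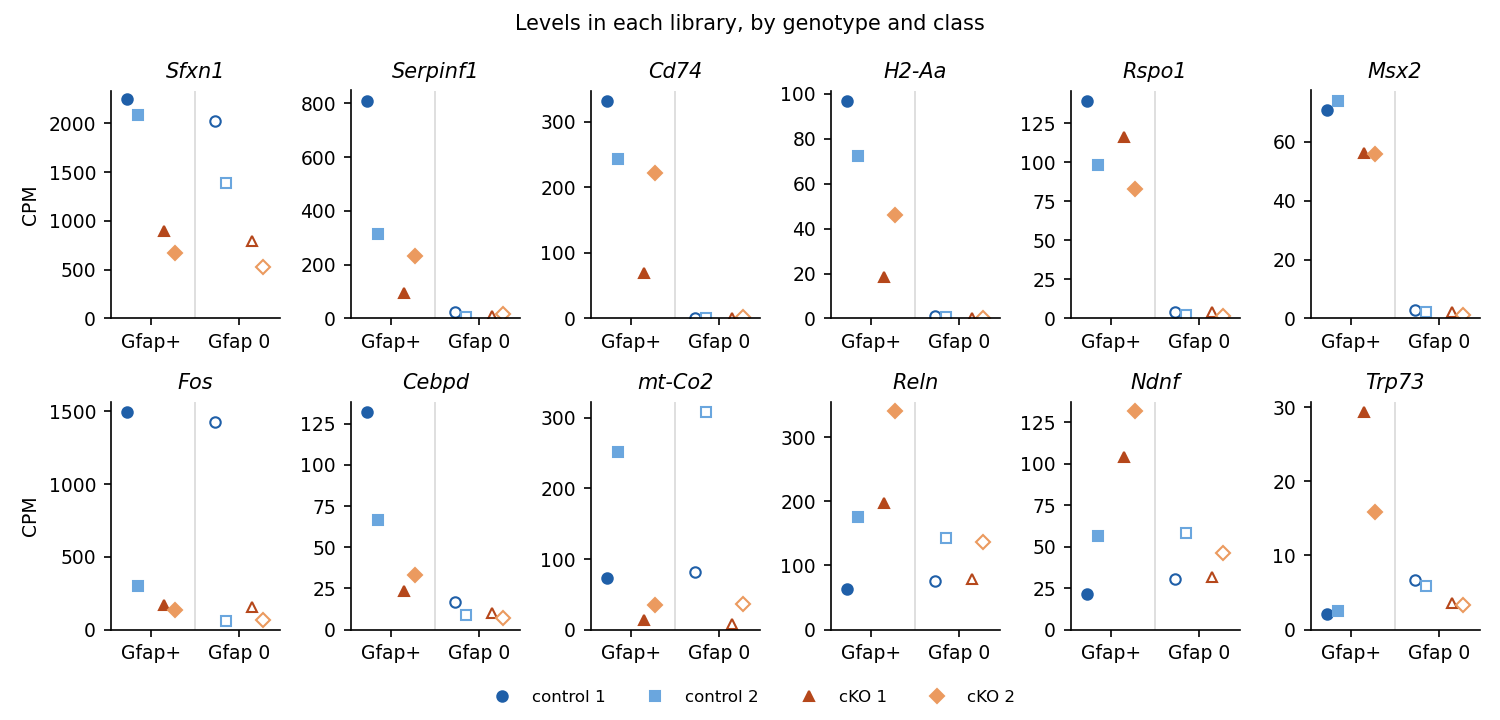
Level (CPM, linear axes that start at 0) of 12 genes in each library, controls and cKO, with filled points for Gfap-positive and open points for Gfap-0 cells. Sfxn1 is lower in both cKO libraries in both classes, Fos is high in both classes of control 1 (1495 and 1429 CPM), and Trp73 is higher in the filled cKO points only, at 29.4 and 15.8 CPM.

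A genotype difference that differed between the 2 classes was tested as an interaction with library as a block. Of 12077 genes 31 passed (0.257%), 29 with a higher cKO-minus-control difference in the Gfap-positive cells (0.24%) and 2 with a lower one (0.0166%). An unadjusted p under 0.05 was reached by 7.54%. Serpinf1 was among the lower ones. It had an interaction of log2 -1.46 ± 0.27 (adjusted p = 0.0187 by edgeR) and passed in 8 of 15, with log2 -0.36 against Gfap-0 cells matched in total count. Its Gfap-0 levels, 25.2 and 6.57 CPM against 8.15 and 14.9 CPM, overlapped.

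Among the 29 higher genes were 4 known from Cajal-Retzius cells, the early-born reelin-secreting neurons under the pia: Reln, Ndnf, Nhlh2 and Trp73. The sum over 7 genes of such cells, a list chosen after the values were seen, was 92.9, 262, 379 and 574 CPM in Gfap-positive cells, so that cKO lay above control. In Gfap-0 cells it was 126, 232, 129 and 199 CPM. Vascular and red blood cell genes made up another share, such as Cldn5 and Hba-a1. The interaction count was 260 without control 1, 108 without control 2 and 50 without cKO 2. It was 5 with Gfap-0 cells matched in total count, and 0 (238 at an unadjusted p under 0.05) once cells holding RNA of other types were left out, which kept 31 Gfap-positive and 31 Gfap-0 cells in control 2 and in which Cldn5, Hbb-bs, Hba-a1, C1qb and Reln, being used to leave cells out, could not be called. Serpinf1 then stood at log2 -1.48 (adjusted p = 1.0 by edgeR), a size close to that with all cells.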

How the data were processed

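Single-cell RNA libraries were made with the 10x Genomics Chromium 3′ kit, per the labels' protocols. The authors deposited 1 table of raw counts for each sort, with genes in rows and cells in columns. Beside it the authors deposited, for each cell, its library, its total count and the fraction of its counts from mitochondrial genes. Per the submitters' processing notes, the tools named include Cell Ranger 2.1.1, UMI-tools 0.5.4, STAR 2.5.2b and Subread 1.6.2, with builds mm10 and GRCm38.p6, and their roles are not given in the sources used here. D1Tom libraries held 2395 to 3206 cells and 27323298 to 36379194 counts. Here, cells were taken by the rule above, their counts summed per library and class, and the sums tested with edgeR 4.0.16 in R 4.3.3 (TMM factors, default filter on low counts, Benjamini-Hochberg adjustment at 0.05). SE is the log2 difference divided by the square root of its F statistic. The 11 genes of the rule were left out of the calls. The class comparison and the interaction had library as a block, and the genotype comparison had no block.

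The members and the gene lists were chosen with earlier results of these data known. Named genes were, per comparison, the 12 with the largest difference in each direction among those past 0.05 that moved the same way in every library and reached a mean of 20 CPM, or the 5 with the smallest p where fewer than 5 passed. The 3 most abundant members of each list were taken in addition for the class and genotype comparisons, not for the interaction, and any other gene named was picked with its values in view. Some genes that met these rules are not reported here. Replicate numbers pair the libraries, since the labels give a shared batch for a number, although same-numbered sums deviated together only with a correlation of 0.0942 over 10634 genes. Doublets were scored by Scrublet's method (scanpy 1.11.5), whose automatic threshold marked 15, 5, 5 and 1 cells. All cells were kept, and an alternative dropped the cells scoring highest, 0.8% for every 1000 cells of a library. The tests were checked on simulated data. Alternatives were DESeq2 1.42.0, RLE factors, no filter, other Gfap minimums (1, 4 and 12), at least 4 of 6 astrocyte genes, thinning to 3000 counts, depth matching, left-out cells and left-out libraries. The Gfap minimum of 12 and the removal of cells with RNA of other types or with shared barcodes were chosen after seeing the data.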

Additional observations from a re-analysis of the deposited data

Results flagged for a closer look

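The genotype difference, cKO minus control, differed between Gfap-positive and Gfap-0 cells for 13 named genes by the interaction test (edgeR's quasi-likelihood test, adjusted p under 0.05, log2 scale). In 12 it was higher in the Gfap-positive cells. The vascular and blood genes were Hba-a1 (5.59 ± 0.57 SE), Cldn5 (2.38 ± 0.43), Slc40a1 (3.63 ± 0.68), Ctla2a (3.78 ± 0.74), Lmo2 (2.34 ± 0.48), Cd93 (3.19 ± 0.67), Foxq1 (4.13 ± 0.88), Higd1b (2.68 ± 0.57) and Pglyrp1 (3.92 ± 0.85). Their Gfap-0 levels moved with the libraries: Cldn5 had 68.4 and 214 CPM in the Gfap-0 cells of the controls and 1.36 and 98.7 CPM in those of cKO, against 1.63, 23.6, 0 and 45.2 CPM in Gfap-positive cells. The sums of 10 endothelial and pericyte markers were 195, 691, 67.2 and 407 CPM in the Gfap-0 cells of control 1, control 2, cKO 1 and cKO 2, and 46.2, 155, 39.0 and 216 CPM in the Gfap-positive cells. Hba-a1 stood at 1402 CPM in the Gfap-0 cells of control 2 and at 1.66 to 7.92 CPM in those of the other libraries. The part of RNA from vascular and blood cells in these results was not tested. With the Gfap minimum at 1, Cldn5, Higd1b, Lmo2 and Slc40a1 turned below 0, and with Gfap-0 cells matched in total count Hba-a1 did.

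Nhlh2 (3.35 ± 0.50 SE), Trp73 (4.04 ± 0.72) and Tcerg1l (2.42 ± 0.48) were the other 3 higher genes. Nhlh2 had 3.26 and 14.6 CPM in controls and 29.4 and 47.5 CPM in cKO in Gfap-positive cells, and 4.61, 16.1, 3.4 and 5.43 CPM in Gfap-0 cells. The neuronal marker sums of Gfap-positive cells were 745, 1900, 1688 and 1935 CPM, and their part in these results was not tested. Serpinf1 (-1.46 ± 0.27) had a lower difference. Once cells holding RNA of other types were left out, 11 of the 13 were no longer among the genes tested, and Serpinf1 (-1.48) and Tcerg1l (1.86) did not pass, in a setting with fewer cells.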

How the results depend on the processing

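The 2903 calls between classes came to 1700 with a Gfap minimum of 1, 1913 with at least 4 of 6 astrocyte genes, 798 without cells holding RNA of other types, 766 with no replicate block and 1108 after thinning to 3000 counts, and to 2117 to 3004 with 1 library left out. Of the 2903, 82 had the other sign without cells holding RNA of other types. Of 58 named genes called there, 30 changed their call or direction under at least 1 alternative. The 0 genotype calls came to 1 by DESeq2, 65 with no filter, 13 and 39 with Gfap minimums of 4 and 12, 3 with the replicate block, and 28 to 868 with 1 library left out. The 31 interaction calls came to 7 by DESeq2, 98 with no filter, 9 with a Gfap minimum of 1, 6 without the highest doublet scores, 5 with at least 4 of 6 astrocyte genes, 15 without cells of shared barcodes, 0 without cells holding RNA of other types, 5 with depth matching, and 24 to 260 with 1 library left out. The difference in share moved to -12.5 points without cells holding RNA of other types, and ran from -7.99 to -0.714 with 1 library left out. The block changed no other call among the genes named for the genotype comparison.

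Differences between classes that turned sign were, on the log2 scale: Hbb-bs 0.43 by DESeq2. With a Gfap minimum of 1 Cenpf was at -0.0043, with 4 Pcna was at 0.065, and with 12 Cenpf was at -0.12, Foxp2 at 0.035 and Pcna at 0.047. With depth matching Cenpf was at -0.32, Hba-a1 at 0.29, Hbb-bs at 0.42 and Slc1a3 at 0.019. With at least 4 of 6 astrocyte genes Cenpf was at -0.25, Flt1 at 0.50, Foxp2 at 0.064, Higd1b at 0.32 and Rgs5 at 0.73. After thinning Cenpf was at -0.083, Jak1 at -0.068, Timp3 at -0.020 and Trim9 at -0.014. Without cells holding RNA of other types Cst3 was at -0.25, Jun at -0.25, Serpine2 at -0.24, Timp3 at -0.27 and Trim9 at -0.082. Without the highest doublet scores Cenpf was at -0.012 and Jak1 at -0.0086. With 1 library left out the ranges were -0.11 to 0.17 for Cenpf, -0.0075 to 1.00 for Foxj1, -4.28 to 0.81 for Hbb-bs, -0.12 to 0.12 for Jak1, -0.17 to 0.023 for Pcna and -0.21 to 0.0010 for Slc1a3. Between genotypes Foxp2 was at 0.40 with a Gfap minimum of 12 and from -1.51 to 0.083 with 1 library left out. In the interaction, a Gfap minimum of 1 gave Cldn5 -0.13, Higd1b -0.14, Lmo2 -0.097 and Slc40a1 -0.10, and depth matching gave Hba-a1 -0.18 and Foxp2 -0.25. Foxp2 was there at -1.19 without cells holding RNA of other types, -0.59 without cells of shared barcodes and -0.51 without the highest doublet scores. With 1 library left out Cldn5 ran from -1.58 to 3.997 and Foxp2 from -0.49 to 0.99. The causes were not tested.

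Alternatives for the golli-τ-eGFP sort were not run, as no comparison was fitted there. With 2 libraries a genotype, a difference that did not pass is not shown to be absent.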

Other observations

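The other sort, for golli-τ-eGFP, held 20 cells that met the same rule among 982 gated cells, 2 and 3 in its control libraries and 11 and 4 in its cKO libraries. Only cKO 1 of that sort reached 10 cells of each class, so no comparison was fitted. Over all 20 cells Cd74 had 1 count, H2-Aa and H2-Eb1 had 0 and H2-Ab1 had 2, while Gfap had 85 and Aqp4 297. The 20 cells held 11 counts of Msx2, 3 of Rspo1 and 8 of Serpinf1. Pooled over the 20 cells, Cd74 stood at 9.28 CPM, H2-Ab1 at 18.6 CPM and H2-Aa and H2-Eb1 at 0. Each was below its level in every D1Tom library's Gfap-positive cells. Rspo1, at 27.8 CPM, and Serpinf1, at 74.3 CPM, were also below those of every such library. Msx2, at 102 CPM, was above them, although the 11 cells of cKO 1 held 0 counts of it. Those 11 cells also held 0 counts of Serpinf1 and 2 of Rspo1. The pooled levels rest on 20 cells, and the difference between the sorts was not tested.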
